A study of Homo sapiens with 12 samples.

Results

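The 9 genes described here encode high mobility group (HMG) chromatin proteins: HMGA1 and HMGA2, HMGB1, HMGB2 and HMGB3, and HMGN1, HMGN2, HMGN3 and HMGN5. They were taken by symbol from the 57905 genes of the deposited table, and the set was chosen with earlier results of these data known. All 9 had at least 1 FPKM (fragments scaled to transcript length and to library size) in at least 2 libraries, and so were among the 14699 genes tested. The libraries were made from polyadenylated RNA of PC9, HCC827 and HCC4006, established human lung cancer lines that carry an activating mutation of the receptor kinase EGFR. Each line gave 2 DMSO libraries, harvested after 24 hours with the solvent, and 2 libraries labelled dormant, harvested after 2 weeks with 100 nM osimertinib, an EGFR inhibitor, plus 30 nM trametinib, which inhibits MEK, a kinase downstream of EGFR. Dormant cells were grown in larger dishes, so drug, duration and dish cannot be told apart. Plates were set up in duplicate and nothing says that they came from separate cultures, so p-values measure only the spread between these samples, which may be technical. Each group is thus a plate pair of 1 line under both drugs together, and neither drug was given alone.

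HMG proteins are small, abundant proteins that bind chromatin without forming the nucleosome itself. HMGA proteins bind AT-rich DNA in the minor groove through AT-hook motifs, and are known as embryonic and tumour-associated genes in lung and other epithelia. HMGB proteins bend DNA through HMG-box domains, and HMGB1 also acts as an inflammatory signal once it leaves the cell. HMGN proteins bind the nucleosome directly and counteract its compaction by linker histone H1.

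RefSeq promoter sequences (GRCh38.p14) were found for 7 of the 9 genes, in 11 entries of 300 bases each. They are shown because HMGA1, HMGB1, HMGB3 and HMGN2 were lower together in dormant cells, whereas HMGN3 was not called lower. Each line gives the 120 bases before the first listed start of a gene, 5′ to 3′ on its own strand, with capitals marking the CCAAT box on either strand (CCAAT or its complement ATTGG). The stretches are chr6:34236753-34236872 on the plus strand for HMGA1, chr13:30465937-30466056 on the minus strand for HMGB1, chrX:150983215-150983334 on the plus strand for HMGB3, chr1:26472320-26472439 on the plus strand for HMGN2 and chr6:79234683-79234802 on the minus strand for HMGN3.
HMGA1: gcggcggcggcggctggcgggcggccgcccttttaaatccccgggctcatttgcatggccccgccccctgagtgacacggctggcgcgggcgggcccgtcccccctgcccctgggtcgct
HMGB1: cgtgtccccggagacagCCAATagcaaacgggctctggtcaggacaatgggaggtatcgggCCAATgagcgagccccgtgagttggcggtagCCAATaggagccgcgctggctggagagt
HMGB3: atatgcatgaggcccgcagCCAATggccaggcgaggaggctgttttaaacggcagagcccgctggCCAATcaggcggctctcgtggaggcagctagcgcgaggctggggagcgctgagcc
HMGN2: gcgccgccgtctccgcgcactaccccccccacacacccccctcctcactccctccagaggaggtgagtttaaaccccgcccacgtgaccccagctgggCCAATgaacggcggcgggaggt
HMGN3: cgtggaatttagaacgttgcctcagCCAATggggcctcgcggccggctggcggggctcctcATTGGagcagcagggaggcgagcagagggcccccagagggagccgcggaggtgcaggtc
CCAAT was present on at least 1 strand in 8 of the 11 entries, against 34.6% of all 35116 RefSeq promoters of that length. The HMGB1 stretch holds 3 copies within 80 bases, and the full 300-base window of the first HMGB3 entry also holds 3, which 3.26% of all promoters reach. The HMGN3 stretch has 2 copies and the HMGA1 stretch has 0. Each of the 2 HMGA1 entries holds 1 copy in its full 300-base window, outside the 120 bases before its start. Not printed are the stretches of HMGN1, with 2 copies, and HMGN5, with 0, both genes not called lower. TTTGAA, the core of the cell cycle homology region, lay in 2 entries (15.2% of all promoters), and the E-box CACGTG in 1, that of HMGN2 (7.26%). Both were searched on both strands. These matches describe letters, not binding.

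Of the 12 libraries, 2 stood apart from their replicates, and values without both are given beside the results they touch most. The second HCC4006 dormant library listed GAPDH at 6.73 FPKM, had 20.0% of its summed FPKM in mitochondrial tRNA, listed 1948 tested genes at 0 (368 to 802 in the other 11) and correlated with its replicate across genes at r = 0.654. The HCC827 DMSO replicates correlated at 0.909, and all other replicates at 0.979 to 0.991. Of the HCC827 DMSO pair, the second library was taken to stand apart. It listed ACTB at 1842 FPKM and 802 tested genes at 0, against 12726 and 566 in the first. With these 2 libraries left out, HCC4006 dormant and HCC827 DMSO keep 1 library each, which the model takes to vary like the other groups. The second minus first difference also followed the GC content of genes, with r = -0.44 in HCC827 DMSO, -0.38 in HCC4006 dormant, -0.35 in HCC4006 DMSO and 0.48 in PC9 dormant. The members span much of the GC range, from 33.8% in HMGN5 to 61.3% in HMGA1 (median of tested genes 47.2%). All but HMGA1 and HMGB2 (49.8%) lay below that median. The part of GC content in the results was not tested. The epithelial markers EPCAM, KRT8, KRT18, KRT19, CDH1 and EGFR were at 1 FPKM or more in all 12 libraries. Of the markers of other cells, CD3E was listed at 0 throughout, and PTPRC (up to 0.14 FPKM), DCN (up to 0.105), PDGFRA (up to 0.675) and CDH5 (up to 0.145) were low. CD68, COL1A1, COL1A2 and VWF passed 1 FPKM in some libraries, COL1A2 with 309 FPKM on average in HCC4006 dormant cells, and their part in the results was not tested.

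**Figure D1:**
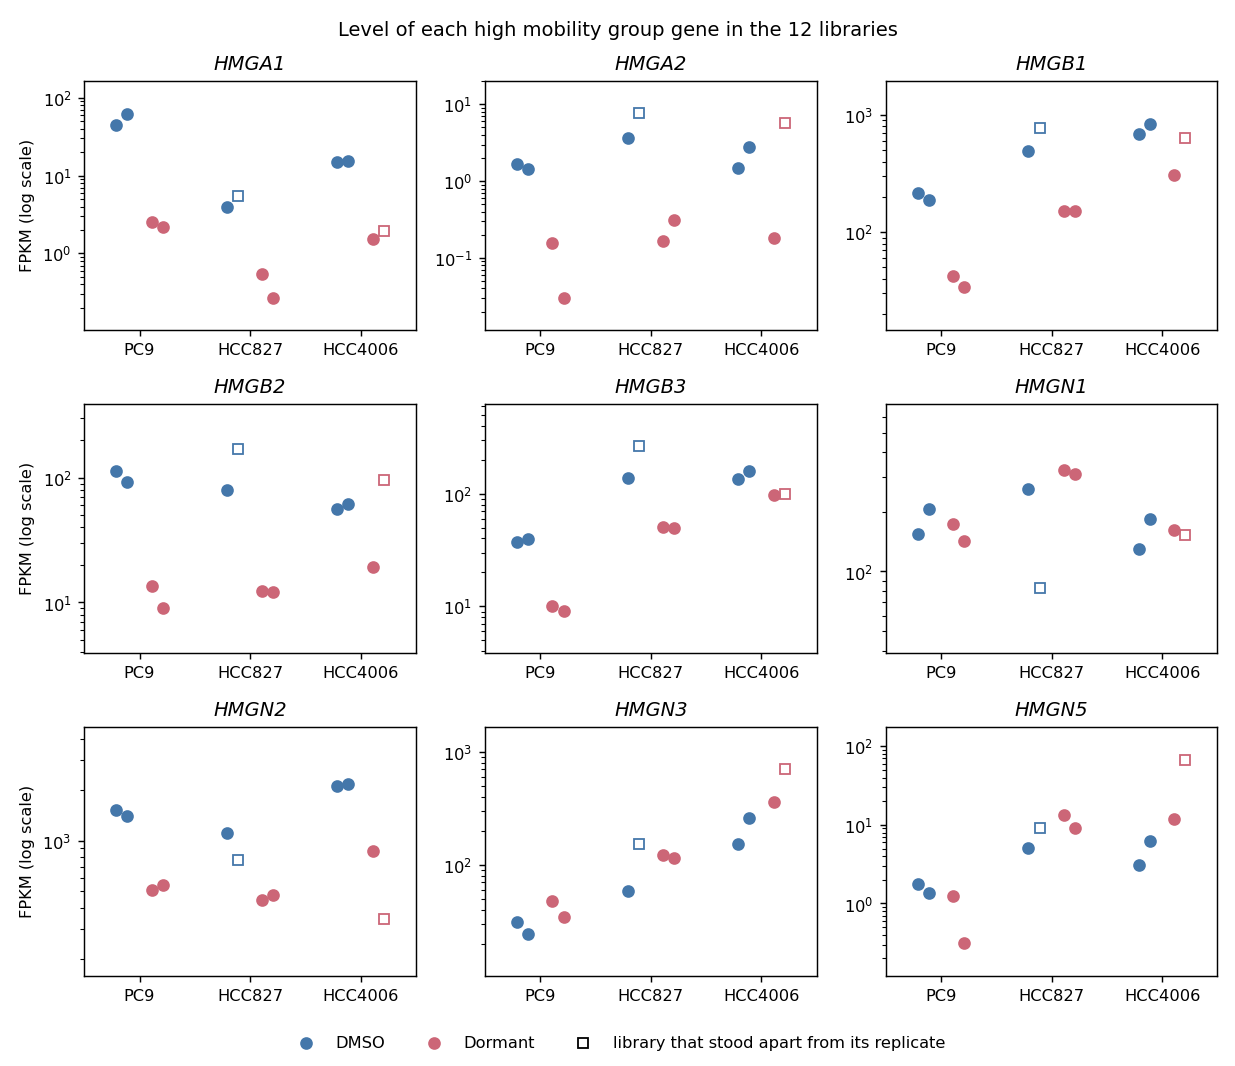
Level of each of the 9 genes in every library, in FPKM on a log axis, by line (x axis) and treatment (blue DMSO, red dormant); open squares mark the 2 libraries that stood apart from their replicates. HMGA1 and HMGN2 were lower in both dormant libraries than in both DMSO libraries of every line, and the HMGN1 groups overlapped in PC9 and HCC4006.

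The first question was whether the HMG genes differed between dormant and DMSO cells, on average over the 3 lines and within each. HMGA1, HMGB1, HMGB2, HMGB3 and HMGN2 were lower in the mean over lines, with differences of -1.45 to -2.86 on the scale of log2(FPKM + 1), the scale of all differences below, which understates changes of genes near 0. HMGA2 had a difference of -1.23 without passing the test, and HMGN1, HMGN3 and HMGN5 had differences above 0, none of them called. Thus 5 of 9 fell and 0 rose (0 also rose at an unadjusted p under 0.05, and 6 then fell; limma), where 4.55% of all tested genes were called lower and 10.9% higher. The median difference of the 9 genes was -1.45, against 0.22 over all tested genes. Of all called genes 70.5% were higher; with median of ratios scaling that share was 49.3% and with quantile normalization 49.0%, the median of all genes went to 0.03 under both, and the 5 members remained called lower. Without the 2 libraries that stood apart, 6 were called lower and 1, HMGN3, higher, where 12.8% of all tested genes were called lower and 30.0% higher. In bulk RNA, fewer cells expressing a gene and less RNA per cell cannot be told apart.

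Within single lines, 2 of the 9 fell in PC9 (HMGA1 and HMGB1; 0.891% of all tested genes called lower, 1.82% higher), 3 in HCC827 (HMGA1, HMGB2 and HMGB3; 1.44% lower, 3.06% higher) and 1 in HCC4006 (HMGA1; 1.18% lower, 4.88% higher). None rose in a line by this limma fit; at an unadjusted p under 0.05, 0, 0 and 1 were higher in the same order of lines. With the 2 libraries left out, 6, 6 and 5 fell, where 8.65%, 6.57% and 3.72% of all tested genes were called lower. Both dormant libraries lay below both DMSO libraries for 7 genes in PC9, 6 in HCC827 and 4 in HCC4006, where 27.0%, 19.4% and 15.8% of all tested genes did so. They lay above for 1, 2 and 2 genes, against 35.5%, 40.0% and 30.4%.

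**Figure D2:**
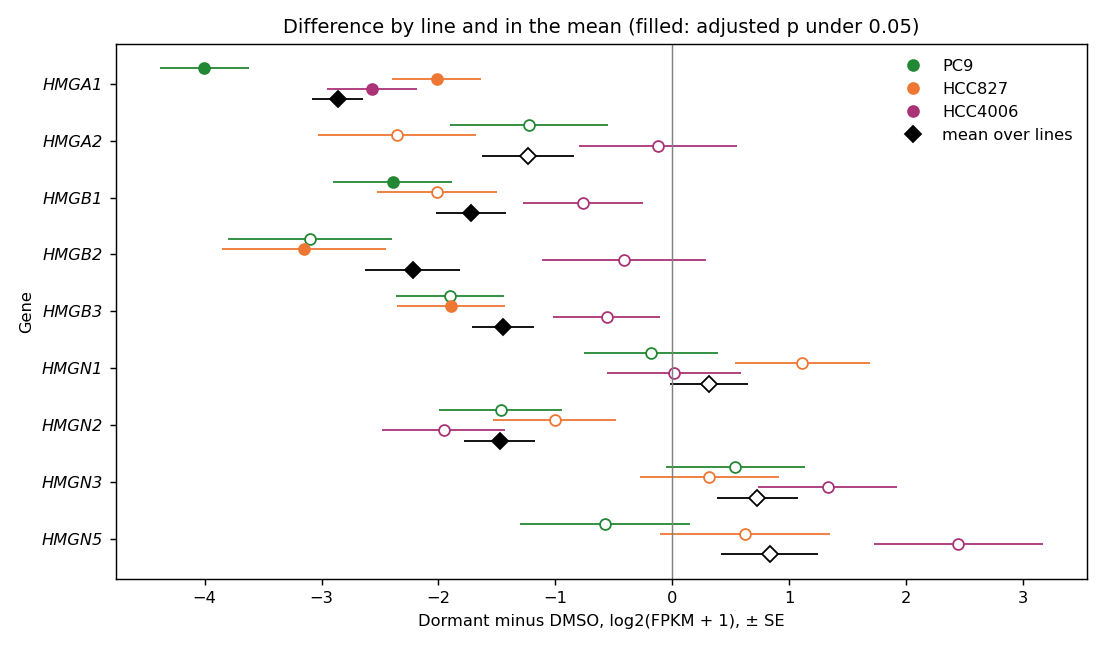
Difference of each gene, dormant minus DMSO on the log2(FPKM + 1) scale, with its SE, in each line and in the mean over lines; filled symbols passed an adjusted p of 0.05. HMGA1 is filled in every line, at -4.00 in PC9, -2.01 in HCC827 and -2.57 in HCC4006.

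HMGA1, an architectural factor that binds AT-rich promoters, was the one HMG gene called lower in every line. In PC9 it was at 44.7 and 62.1 FPKM in DMSO and at 2.5 and 2.22 in dormant cells. In HCC827 it was at 3.97 and 5.44 FPKM in DMSO and at 0.545 and 0.27 in dormant cells. In HCC4006 it was at 15.0 and 15.4 FPKM in DMSO and at 1.52 and 1.95 in dormant cells. The groups did not overlap in any line, and the ratio of means was 22.7-fold lower in PC9, 11.5-fold in HCC827 and 8.74-fold in HCC4006. The mean difference was -2.86 ± 0.22 (SE; limma, adjusted p = 0.000145), and the difference was -4.00 in PC9 (adjusted p = 0.000472), -2.01 in HCC827 (0.0174) and -2.57 in HCC4006 (0.00527). The call was lost without 1 library in HCC4006 (without the first DMSO library, adjusted p = 0.0548) and in 3 of 12 such fits in HCC827, and in no such fit for PC9 or the mean. The second HCC4006 dormant library did not stand out here, with 1.95 FPKM beside 1.52.

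HMGA2, its paralogue and a known target of let-7 microRNAs, was at low levels throughout. PC9 had 1.7 and 1.43 FPKM in DMSO and 0.155 and 0.03 in dormant cells, and HCC827 had 3.64 and 7.63 against 0.165 and 0.315. HCC4006 had 1.49 and 2.78 FPKM in DMSO, and its dormant libraries were split at 0.18 and 5.77. The high value belongs to the library that stood apart, and it alone made the HCC4006 groups overlap. The HMGA2 mean difference over lines was -1.23 ± 0.39 (adjusted p = 0.0594) and was not called. It was -1.504 without both libraries that stood apart (adjusted p = 0.000107), with all 3 lines called. Leaving out the second HCC4006 dormant library alone gave -1.65 (adjusted p = 0.000175), leaving out the first gave -0.81 (0.00724), and a pseudocount of 0.1 gave -2.65 (0.0293).

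HMGB1, an HMG-box protein and the most highly expressed of the 3 HMGB genes, fell in the mean over lines. In PC9 it was at 218 and 188 FPKM in DMSO and at 41.9 and 34.0 in dormant cells. In HCC827 it was at 492 and 780 FPKM against 153 and 153, and in HCC4006 at 687 and 831 against 309 and 641. No line had overlapping groups, and the ratio of means was lower by more in PC9 (5.35-fold) than in HCC4006 (1.60-fold), a contrast between lines that the F test did not call (adjusted p = 0.464). The mean difference was -1.72 ± 0.30 (adjusted p = 0.00475) and was called under all 21 alternative settings. Within lines, PC9 passed (-2.39, adjusted p = 0.0407) but lost the call in 8 of 12 fits that leave out 1 library, and HCC827 (-2.01, 0.058) and HCC4006 (-0.76, 0.331) did not pass. All 3 lines were called without both libraries that stood apart, HCC827 at -1.68 (adjusted p = 0.00187) and HCC4006 at -1.29 (0.00701), where the ratio of means became 2.46-fold lower.

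HMGB2, the HMG-box protein best known from dividing cells, had the largest mean difference of the HMGB genes. It was at 114 and 92.6 FPKM in PC9 DMSO cells and at 13.7 and 9.05 in dormant ones, and at 80.3 and 169 against 12.4 and 12 in HCC827. In HCC4006, DMSO cells had 55.7 and 61.4 FPKM, the first dormant library 19.4 and the second 96.4, above both controls. The mean difference was -2.22 ± 0.41 (adjusted p = 0.00637), with HCC827 called (-3.15, adjusted p = 0.0351, a call lost in 9 of 12 fits without 1 library), PC9 just outside (-3.10, 0.0503) and HCC4006 not called (-0.42, 0.715). All 3 lines were called without the 2 libraries, HCC4006 at -1.54 (adjusted p = 0.00804). MKI67, a marker of dividing cells named here with earlier results known, was at 4.37 to 5.92 FPKM in PC9 DMSO cells against 0.99 to 1.47 in dormant ones. MKI67 was at 5.12 to 6.17 against 0.015 to 0.03 in HCC827, and at 8.57 to 15.6 against 5.33 to 5.55 in HCC4006. CCNB1, another such marker, was at 279 to 334 FPKM in PC9 DMSO cells against 58.7 to 67.1 in dormant ones. CCNB1 was at 514 to 594 against 14.0 to 16.1 in HCC827, and at 706 to 991 against 39.2 to 150 in HCC4006. In HCC4006, the dormant values 5.55 for MKI67 and 39.2 for CCNB1 came from the library that stood apart. The part of cell division in the HMG values was not tested.

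HMGB3, an X-linked HMG-box gene, was lowest in PC9 under both treatments, as HMGB1 was. PC9 had 36.9 and 39.7 FPKM in DMSO and 10.0 and 9.07 in dormant cells, HCC827 had 137 and 264 against 51.0 and 50.02, and HCC4006 had 134 and 159 against 97.9 and 99.1. Groups did not overlap in any line, and the dormant HCC4006 replicates were close for this gene. Its mean difference was -1.45 ± 0.27 (adjusted p = 0.00637), with HCC827 called (-1.89, adjusted p = 0.0482, lost in 9 of 12 fits without 1 library), and PC9 (-1.90, 0.0669) and HCC4006 (-0.56, 0.426) not. HMGB3 stayed uncalled in HCC4006 without the 2 libraries (-0.57, adjusted p = 0.125).

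HMGN2, a nucleosome-binding protein, was the most abundant of the 9 genes in 10 of the 12 libraries and fell in the mean over lines. PC9 DMSO cells had 1526 and 1392 FPKM and dormant cells 507 and 547. HCC827 had 1106 and 768 FPKM against 444 and 474, and HCC4006 had 2107 and 2147 against 868 and 345. No line had overlapping groups. Over lines the difference was -1.48 ± 0.30 (adjusted p = 0.0111), with no line called alone (PC9 -1.47, HCC827 -1.004 and HCC4006 -1.96). The mean missed the threshold in 1 of the 21 alternatives (without the first PC9 DMSO library, adjusted p = 0.0504), and without the 2 libraries that stood apart it was -1.34 with all 3 lines called.

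HMGN1, a nucleosome-binding protein of the same kind, was not called in any line. PC9 had 155 and 206 FPKM in DMSO and 173 and 143 in dormant cells, and HCC4006 had 130 and 184 against 161 and 152. The groups of these lines overlapped. In HCC827, dormant cells had 325 and 311 FPKM, and the DMSO libraries were split at 259 and 82.9, the lower one being the library that stood apart. Over lines the difference was 0.31 ± 0.33 (adjusted p = 0.541), and 0.06 without the 2 libraries (0.788). The ratio of HMGN2 to HMGN1 was 8.32 in PC9 DMSO cells and 3.38 in dormant ones, 6.77 and 1.45 in HCC827, and 13.9 and 3.83 in HCC4006. It was 4.28 in the first HCC827 DMSO library alone and 5.38 in the first HCC4006 dormant library alone.

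HMGN3 and HMGN5, the latter an X-linked member with a long acidic tail, were higher in some dormant groups. HMGN3 was at 31.1 and 24.3 FPKM in PC9 DMSO cells against 47.4 and 34.4, at 58.4 and 153 in HCC827 against 122 and 114, and at 154 and 260 in HCC4006 against 361 and 704. The HMGN3 groups overlapped in HCC827 alone. Its mean difference of 0.73 ± 0.34 was not called (adjusted p = 0.174) and was 0.80 without the 2 libraries (0.00922), with no line called alone. HMGN5 was at 1.75 and 1.37 FPKM in PC9 DMSO cells against 1.24 and 0.31, at 5.08 and 9.21 in HCC827 against 13.3 and 9.25, and at 3.07 and 6.27 in HCC4006 against 11.8 and 67.6. It lay lower in both dormant libraries of PC9 and higher in those of the other lines, but its mean difference of 0.83 ± 0.42 was not called (adjusted p = 0.2), nor was any line.

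The second question was whether the differences themselves depended on the line. By the F test none of the 9 genes passed (limma; 3 had an unadjusted p under 0.05), where 1.48% of all tested genes did. Adjusted p ranged from 0.227 for HMGA1 to 0.661 for HMGN3. HMGA1 alone passed without the 2 libraries, where 8.92% of all tested genes passed. No gene is therefore shown to respond differently between lines in all 12 libraries, whatever its calls within lines.

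The make-up of the family also differed between treatments. The FPKM of the 9 genes summed to 2068 ± 85.3 (SD, n = 2) in PC9 DMSO cells and 787 ± 12.9 in dormant ones, 2192 ± 65.9 and 1123 ± 0.919 in HCC827, and 3478 ± 268 and 1972 ± 200 in HCC4006, a ratio of 2.63, 1.95 and 1.76. HMGN2 made up 31.9% to 70.5% of that sum in the 6 groups. HMGN3 made up 1.33% of it in PC9 DMSO cells and 5.18% in dormant ones, 4.77% and 10.5% in HCC827, and 5.89% and 26.5% in HCC4006. HMGN1 made up 8.75% and 20.0% in PC9, 7.88% and 28.3% in HCC827, and 4.49% and 8.0% in HCC4006. Both libraries that stood apart moved these values: the first HCC827 DMSO library alone had 2.72% HMGN3 and 12.1% HMGN1, and the first HCC4006 dormant library alone 19.7% and 8.82%. These shares are descriptions, and a share can grow because the others shrink.

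**Figure D3:**
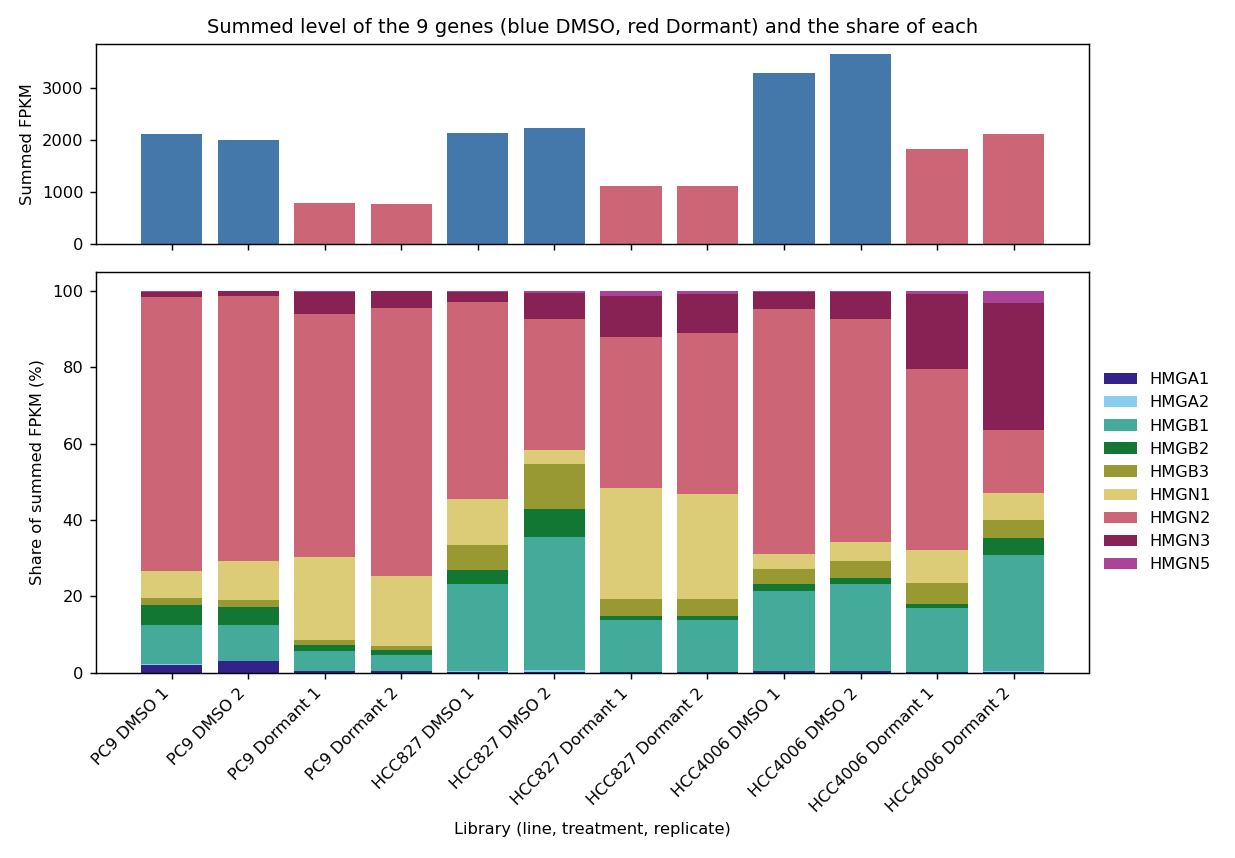
Summed FPKM of the 9 genes in each library (upper bars) and the percentage each gene contributed (lower stacked bars). Both dormant libraries of each line had a smaller sum than both DMSO libraries, and HMGN2 took the largest share in every library but the second HCC827 DMSO and the second HCC4006 dormant library.

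The third question was how the levels differed between lines under 1 treatment. In DMSO, 3 of the 9 genes passed the F test (HMGA1, HMGB3 and HMGN3; 12% of all tested genes did). HMGA1 was highest in PC9, and both HCC827 (-3.25, adjusted p = 0.0007) and HCC4006 (-1.73, 0.0214) were lower than PC9. HCC4006 was higher than HCC827 by 1.52, just outside the threshold (adjusted p = 0.0501), and by 1.70 without the 2 libraries (0.0049). HMGB3 had the opposite order, higher than in PC9 in HCC827 (2.28, adjusted p = 0.0142) and in HCC4006 (1.90, 0.0331), whose difference from each other was not called. HMGN3 was higher in HCC4006 than in PC9 (2.82, adjusted p = 0.0179), with HCC827 between them and not called against either. Without the 2 libraries HMGN3 was called higher in HCC4006 than in HCC827 (1.76, adjusted p = 0.00799).

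In dormant cells, 4 of the 9 passed (HMGB1, HMGB3, HMGN3 and HMGN5; 31.6% of all tested genes did), all with PC9 lowest. HMGB1 was higher in HCC827 than in PC9 by 1.99 (adjusted p = 0.0357) and in HCC4006 by 3.52 (0.00135), and HMGB3 by 2.29 (0.0106) and 3.24 (0.00119). HMGN5 was higher than in PC9 by 2.82 in HCC827 (adjusted p = 0.0354) and by 4.11 in HCC4006 (0.00362). HMGN3 was higher in HCC4006 than in PC9 by 3.61 (adjusted p = 0.00262) and than in HCC827 by 2.09 (0.0432). Of these 4, HMGN3 was the gene for which HCC4006 and HCC827 were called different. With the 2 libraries left out, 6 genes passed in DMSO and 7 in dormant cells, where 48.4% and 62.4% of all tested genes passed, and the 4 named above were among the latter. HCC4006 then exceeded PC9 by 3.0 for HMGB1, 3.23 for HMGB3, 3.13 for HMGN3 and 2.91 for HMGN5, and HCC4006 was also called higher than HCC827 for HMGB1 (1.01, adjusted p = 0.0127) and HMGB3 (0.94, 0.0166).

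HMG genes have many processed copies, intronless duplicates made from their mRNA, to which their reads can also align. The table lists 148 such copies by name, of which 23 were tested. HMGB1P5 was the most abundant: its sequence matched an HMGB1 transcript at 97.9% over 984 bases, and its FPKM was 0.302 to 0.402 of that of HMGB1 in 11 libraries. In the second HCC4006 dormant library the ratio was 0.059. HMGB1P5 fell in the mean by -2.13 ± 0.34 (adjusted p = 0.00313), with no line called. HMGN2P5, 99.6% identical to an HMGN2 transcript over 273 bases, was at 0.0156 to 0.0362 of HMGN2 in those 11 libraries and listed at 0 in the other. HMGN1P38, 98.4% identical to an HMGN1 transcript over 303 bases, was at 0.0690 of HMGN1 in PC9 DMSO cells but at 0.0029 to 0.0102 in the 4 HCC827 libraries. Values of HMGB1, HMGN1 and HMGN2 are uncertain to the extent that reads were split with these copies, which was not tested.

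**Figure D4:**
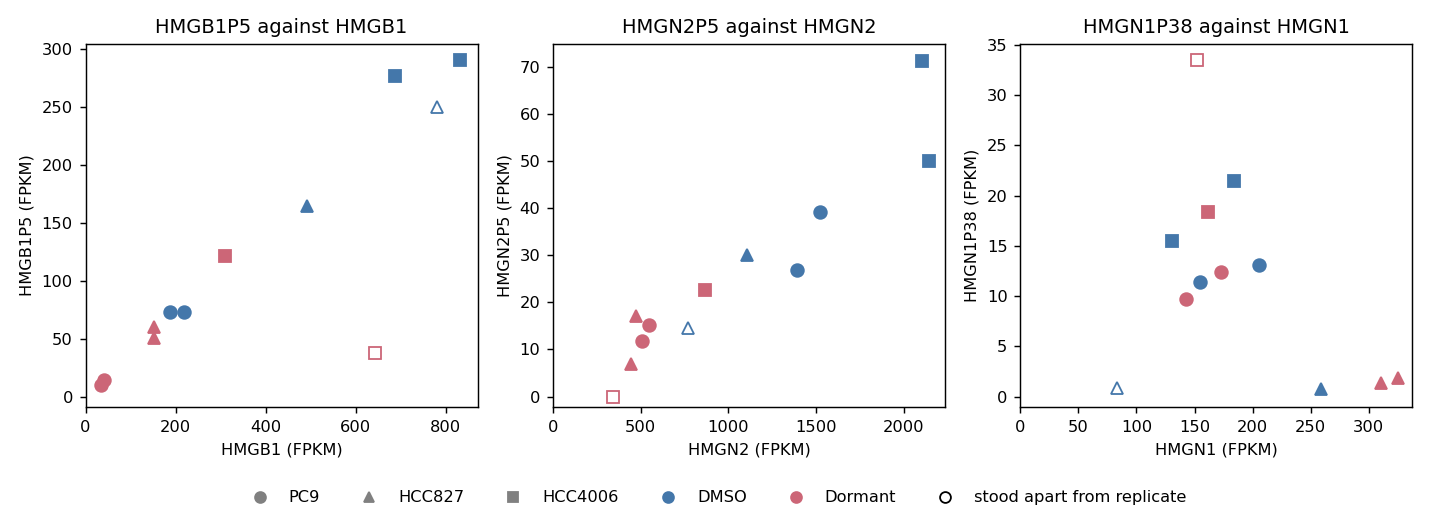
FPKM of 3 processed copies (y axis) against that of the gene they derive from (x axis), 1 symbol per library; shape gives the line, colour the treatment, and open symbols the 2 libraries that stood apart. HMGB1P5 follows HMGB1 in 11 libraries and lies far below in the second HCC4006 dormant library, and HMGN1P38 is near 0 in all HCC827 libraries.

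Genes on the opposite strand that overlap HMGA2 and HMGN3 were read beside them. The labels describe a strand-specific library, but whether the counting used strand is not given in the sources used here, so reads of such partners may not be separated. RPSAP52, which overlaps HMGA2 and was picked out after its values were seen, was at 0.77 and 0.795 FPKM in PC9 DMSO cells and 0.31 and 0.285 in dormant ones. RPSAP52 was at 6.39 and 3.42 FPKM against 0.06 and 0.175 in HCC827, and at 18.3 and 16.6 against 0.235 and 0 in HCC4006. RPSAP52 fell in the mean by -2.29 ± 0.19 (adjusted p = 0.000206), and its difference varied between lines (F test, adjusted p = 0.0133). It stayed low in the second HCC4006 dormant library, where HMGA2 was at 5.77 FPKM. HMGN3-AS1 averaged 0.48 FPKM in PC9 DMSO cells and 0.898 in dormant ones, 0.348 and 1.93 in HCC827, and 0.205 and 2.64 in HCC4006, and rose in the mean by 0.98 ± 0.24 (adjusted p = 0.022). With 1 library left out, 9 of 12 fits lost this call.

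For each member, the genes most like it were taken by Pearson r of log2(FPKM + 1) over the 12 libraries, among 5702 genes with a mean of at least 5 FPKM. These r describe libraries that share line, treatment and quality, and carry no test. HMGB1 and HMGB3 were among each other's closest genes (r = 0.965), with HPRT1 closest to both (0.980 and 0.971). HMGA1 was closest to MYEOV (0.983), DTYMK (0.938) and RPL39L (0.928), and HMGA2 to SNRPG (0.964), CENPK and SLIRP. HMGB2 was closest to PTGES3 (0.960), RAD51AP1 and CDCA7, and HMGN2 to SFXN1 (0.957), SPC24 and DCTPP1. HMGN3 was closest to SCFD1 (0.991), TRAPPC6B and FAM103A1, HMGN5 to PMS1 (0.988), ZC2HC1A and RWDD3, and HMGN1 to DNAJA2 (0.890), FBXO21 and DCAF7, the weakest likeness of the 9.

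Related genes were read beside the members in the mean over lines, where 4.55% of all tested genes were called lower and 10.9% higher. Of 27 other HMG and HMG-box genes, 18 were tested, 3 rose and 1 fell (median difference 0.51, against 0.22 over all tested genes). The transcription factors SOX4 (2.54 ± 0.34, adjusted p = 0.00139), HBP1 (2.29 ± 0.26, 0.000627) and TOX (1.47 ± 0.30, 0.0102) rose. TFAM, the HMG-box protein that packages mitochondrial DNA, fell in the mean (-1.36 ± 0.27, adjusted p = 0.00997). TFAM was called in PC9 alone (-2.18, against -1.61 in HCC827 and -0.29 in HCC4006). HMGN4, an intronless relative of HMGN2, was not called (0.53 ± 0.27, adjusted p = 0.199), and HMGB4 was listed at 0 in all libraries. Of these genes, 9 were called higher and 2 lower without the 2 libraries.

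Linker histones, which HMGN proteins counteract on chromatin, were split. Of 10 listed, 6 were tested, 1 rose and 3 fell (median -0.71). HIST1H1C rose by 2.82 ± 0.43 (adjusted p = 0.00287), from a mean of 10.8 to 630 FPKM in PC9, with no call in HCC827 or HCC4006. HIST1H1E (-1.58 ± 0.24, adjusted p = 0.00268), HIST1H1A (-0.76 ± 0.12, 0.00297) and HIST1H1B (-0.74 ± 0.15, 0.00949) were called lower in the mean. HIST1H1A was called in HCC4006 alone, from a mean of 2.35 to 0.155 FPKM, and averaged 0 in both HCC827 groups. HIST1H1E and HIST1H1B were called in PC9 alone, from means of 9.965 to 0.665 and 1.88 to 0.18 FPKM. Many histone transcripts lack a poly(A) tail, which poly(A) selection then recovers only in part.

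Among receptors and other partners of HMGB1, 11 of 12 listed genes were found, 8 were tested, 4 rose and 0 fell (limma, 0 fell also at an unadjusted p under 0.05, median 0.57). THBD, a receptor that binds HMGB1 and thrombin, rose by 1.35 ± 0.16 (adjusted p = 0.000863). The toll-like receptor TLR2 (1.00 ± 0.28, adjusted p = 0.0418) and the chemokine CXCL12 (0.86 ± 0.21, 0.0227) were also called higher. So was AGER, the receptor for advanced glycation end products (0.57 ± 0.14, 0.0238). TLR2, CXCL12 and AGER lost the call in 10, 9 and 6 of 12 fits without 1 library. CXCL12 was called in HCC4006 alone (2.46, against 0.07 in PC9 and 0.06 in HCC827). AGER was called in HCC827 alone (1.41, against 0.15 in PC9 and 0.16 in HCC4006), from a mean of 0.05 to 1.80 FPKM. Leaving out both libraries that stood apart gave mean differences of 1.34 for THBD, 0.69 for TLR2, 0.63 for CXCL12 and 0.64 for AGER.

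Of 15 genes of the SET complex and histone chaperones, nuclear partners of HMGB2 and of nucleosome assembly, all were tested, 5 fell and 0 rose (limma; 0 rose also at an unadjusted p under 0.05; median -0.41). They included ASF1B (-2.20 ± 0.37, adjusted p = 0.00437), NME1 (-2.03 ± 0.35, 0.00519), NPM1 (-1.47 ± 0.26, 0.00572) and ANP32B (-1.21 ± 0.26, 0.0125, lost in 2 of 12 fits without 1 library). Of 10 genes around LIN28, let-7 and the IGF2BP proteins, a pathway that controls HMGA2, 6 were tested and 0 were called (limma; 0 also at an unadjusted p under 0.05; median 0.24). LIN28B was listed at 0 in all libraries. Without the 2 libraries, the mean differences were -2.43 for ASF1B, -1.65 for NME1, -1.45 for NPM1 and -1.35 for ANP32B. With all 12 libraries, ASF1B was called in no line, NME1 in HCC4006 alone, NPM1 in HCC827 alone and ANP32B in PC9 alone.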

How the data were processed

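The deposited table holds FPKM for 57905 genes in 24 columns, 2 for each of 12 libraries, computed by the authors. The submitters' processing notes name STAR 2.5.1b, Cufflinks 2.2.1, DESeq2 1.10.1 and the build hg19 or GRCh37, with no role or order. What sets the 2 columns of a library apart is not stated, so they were averaged to 1 value. No counts are among the values used here, so the depth of a library is unknown, and counting intervals are not given. Libraries summed to 793883 to 1159352 FPKM.

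Values were taken as log2(FPKM + 1) for the 14699 genes that reached 1 FPKM in at least 2 libraries. In limma 3.58.1 (R 4.3.3), all 12 libraries entered 1 linear fit of 6 group means, with a mean-variance trend and 6 residual and 3.84 prior degrees of freedom, so each gene has 1 estimate of spread shared by all groups. Contrasts were dormant minus DMSO in each line, their mean with equal weight, moderated F tests between lines, and 6 contrasts between lines under 1 treatment. Tests were two-sided, with Benjamini-Hochberg adjustment over all tested genes in each contrast, and calls were made at an adjusted p under 0.05. The procedure was tested on simulated data.

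Members and gene lists were chosen with earlier results of these data known. Named were all members, up to 4 called genes with the largest mean difference from each of 5 related lists plus HMGN4, HMGB4, HBP1 and LIN28B, the 3 most abundant processed copies, antisense genes named after a member, and the 3 genes most correlated with each member. CD24 was not found under its symbol and is not analysed here. GC content, gene type and copy identity (BLAST 2.17.0, plus strand) came from GENCODE 29, which is on a later build, so no gene position is given. Alternatives were another pseudocount, no filter, median of ratios scaling, quantile normalization, array quality weights, a replicate block, either column alone, each library left out, and both doubted libraries left out. Tables were handled in pandas 2.3.3 and numpy 2.4.6 (Python 3.11.15), and plots drawn in matplotlib 3.10.9.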

Additional observations from a re-analysis of the deposited data

Results flagged for a closer look

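HMGN5 differences had opposite signs between lines, with no test called. Both dormant libraries of PC9 lay below both DMSO libraries, at 0.31 and 1.24 against 1.37 and 1.75 FPKM, values near 0. Both dormant libraries of HCC827 lay above, at 9.25 and 13.3 against 5.08 and 9.21 FPKM, with 9.21 from the library that stood apart. Those of HCC4006 also lay above. Of all tested genes, 27.0% lay below in PC9, and 40.0% and 30.4% lay above in HCC827 and HCC4006. The F test of the difference between lines missed its threshold (limma, adjusted p = 0.385), and no line was called alone. In HCC4006 the second dormant library, which stood apart, was at 67.6 FPKM and the first at 11.8. Without the 2 libraries that stood apart, the differences were -0.58 in PC9, 1.00 in HCC827 and 1.24 in HCC4006.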

How the results depend on the processing

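The mean differences of HMGA1, HMGB1, HMGB2 and HMGB3 were called lower under all 21 alternatives, and that of HMGN2 under 20. HMGA2, not called in the mean, was called under 8. Depth is unknown, so what it limits cannot be stated, and with groups of 2 a gene that was not called is not shown to be unchanged. The causes of the shifts below were not tested. Fewer samples enter some fits, and more genes enter the fit with no filter.

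Over all tested genes, 2268 were called in the mean; 1498 were with no filter on low values (40839 genes tested), 6299 without both doubted libraries, and 1025 to 7390 with 1 library left out. Member counts in PC9 (2) were 1 with no filter, 4 with quantile normalization, 6 with array quality weights and 6 without the doubted libraries. Those in HCC827 (3) were 1 with no filter, 5 with median of ratios scaling, 5 with weights and 6 without the doubted libraries. Those in HCC4006 (1) were 2 with median of ratios scaling, 0 with weights and 5 without the doubted libraries. Without the doubted libraries, 1 member (0) differed between lines in response, 6 (3) in DMSO level and 7 (4) in dormant level. Weights also gave 6 for DMSO level. Within and between lines, the share of all tested genes called is given only for the main fit and without the doubted libraries. Other such counts, here and below, have no share beside them and are not a result about the members. In the mean without the doubted libraries, 11 other HMG-box genes (4), 8 chaperone genes (5) and 1 LIN28 list gene (0) were called, and 1 HMGB1 partner gene (4) was called with no filter.

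With 1 library left out, counts of members ranged from 4 to 8 in the mean, 1 to 6 in PC9, 0 to 6 in HCC827, 0 to 5 in HCC4006, 0 to 6 for response between lines, 1 to 7 for DMSO level and 3 to 7 for dormant level. Counts ranged from 4 to 9 for other HMG-box genes, 0 to 1 for the LIN28 list, 1 to 8 for HMGB1 partners and 3 to 8 for chaperones. The highest counts of members came without the first HCC4006 dormant library, where the library that stood apart stood alone for its group. That fit called some members higher in the mean and in HCC4006, where the main fit called none higher. In HCC4006 these included HMGA2 or HMGB2, whose main differences there were negative. In PC9, HCC827 and DMSO level, the fit without the second HCC4006 dormant library gave the same count.

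Differences that were not called in the main fit changed sign as follows. With median of ratios scaling, the HMGN3 difference in HCC827 was -0.0945 and the HMGN1 difference in HCC4006 was -0.40; with quantile normalization the latter was -0.0817. With 1 library left out, HMGA2 in HCC4006 ranged from -1.38 to 1.14, HMGB2 in HCC4006 from -1.54 to 0.71, HMGN1 in HCC4006 from -0.23 to 0.26, HMGN1 in PC9 from -0.39 to 0.0224, and HMGN3 in HCC827 from -0.37 to 1.00.

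Replicate numbers share only a number: deviations of same-numbered libraries correlated at 0.0906 in PC9, 0.0372 in HCC827 and 0.168 in HCC4006. With the replicate block, 6 members were called in the mean, HMGA2 being added (adjusted p = 0.0447 for the HMGA2 mean difference over lines), 1 in PC9 and 0 in HCC827, 0 varied in DMSO level and 0 in dormant level.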
